A study of Mus musculus with 20 samples.

Results

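The genes described here are 38 genes of autophagy and of mTOR signalling, taken from a fixed list of names. A gene was measured by the probe set annotated to that gene alone, and by the probe set with the highest mean where there were several. By this rule 37 of the 38 genes were found among 19751 measured genes. Optn, a cargo receptor, was named by no probe set of this annotation and was not analysed here. All 37 passed the filter on low values, and 36 of them lay above the 40th percentile of the array in all 19 assigned arrays, with Atg4c, a protease of the pathway, above it in 18. The samples were microglia, the resident macrophages of the brain, sorted from 8.5-month-old littermates of 4 genotypes. Trem2-/-5XFAD mice (6 arrays) carried the 5XFAD transgenes and lacked Trem2, a lipid-sensing receptor of microglia. 5XFAD mice (5 arrays) carried the transgenes with Trem2 present, Trem2-/- mice (4 arrays) lacked Trem2 without the transgenes, and WT mice (4 arrays) had neither change. The 5XFAD transgenes encode human amyloid precursor protein and presenilin with familial Alzheimer mutations, expressed from neuronal promoter elements, and the mice form amyloid plaques. Another array has a WT title and a Trem2-/- genotype label and entered no comparison. The labels state neither the sorting gate nor the sex of the animals. Nor do they say whether each array is a separate animal, so p-values measure only the spread between arrays, which may be technical.

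Autophagy is the route by which a cell wraps cytoplasm, organelles or aggregates in a double membrane and delivers them to the lysosome. A kinase complex built on Ulk1 or Ulk2 starts the process, a lipid kinase complex around Pik3c3 and Becn1 marks the site with phosphatidylinositol 3-phosphate, and a chain of ubiquitin-like conjugation steps attaches the Atg8 family proteins (LC3 and GABARAP) to the growing membrane, where cargo receptors such as Sqstm1 dock. The kinase mTOR, in a complex with Rptor (mTORC1), holds autophagy back when nutrients are plentiful: it phosphorylates the Ulk complex and keeps the transcription factor Tfeb, a driver of lysosomal and autophagy genes, in the cytoplasm. In macrophages parts of the same machinery also act on phagosomes.

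Promoter sequence is shown for 4 of the genes whose levels differed between groups, because Tfeb and its relative Tfe3, both measured here, bind a motif with the core CACGTG. The sequences come from RefSeq (GRCm38.p6) and cover the 150 bases before the annotated start, written 5′ to 3′ on the strand of the gene, with each CACGTG in capitals. Atg7 (chr6:114670946-114671095, plus strand) and Rheb (chr5:24842362-24842511, minus strand) each held 1 match. Ulk2 (chr11:61855093-61855242, minus strand) and Sqstm1 (chr11:50210821-50210970, minus strand) held none.
Atg7: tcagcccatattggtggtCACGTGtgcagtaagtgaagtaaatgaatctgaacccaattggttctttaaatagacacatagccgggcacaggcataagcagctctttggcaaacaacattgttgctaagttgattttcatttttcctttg
Rheb: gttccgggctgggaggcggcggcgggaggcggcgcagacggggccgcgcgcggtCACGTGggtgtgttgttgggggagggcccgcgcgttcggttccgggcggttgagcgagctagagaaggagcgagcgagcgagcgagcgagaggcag
Ulk2: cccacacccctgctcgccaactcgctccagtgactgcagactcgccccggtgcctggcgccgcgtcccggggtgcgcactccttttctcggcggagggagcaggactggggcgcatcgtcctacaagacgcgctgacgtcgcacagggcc
Sqstm1: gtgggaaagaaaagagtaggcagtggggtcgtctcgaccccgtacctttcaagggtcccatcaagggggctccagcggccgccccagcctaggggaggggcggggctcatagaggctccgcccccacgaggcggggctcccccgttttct

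The motif reads the same on both strands. In the whole 300-base window of the table, 250 bases before the start to 50 after it, CACGTG was found in 5 of the 35 promoters listed for 31 of the members (14.3%), those of Atg3, Atg5, Atg7, Atg14 and Rheb, against 7.15% of all 32851 promoters. The longer form TCACGTGA, which contains the shorter one, was found in 1 of the 35, that of Atg3, and in 0.974% of all promoters. A match is a description of the letters and not evidence of binding.

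Trem2 checked the genotype labels. On the log2(intensity + 1) scale used for all levels below it ranged from 6.75 to 7.60 in Trem2-/-5XFAD and from 6.84 to 7.02 in Trem2-/-, against 11.45 to 11.80 in 5XFAD and 11.14 to 11.39 in WT. Whether this probe set falls inside the deletion is not stated. The mean of 7 measured microglial markers was high in all arrays, 11.20 to 11.34 in Trem2-/-5XFAD, 10.92 to 11.03 in 5XFAD, 11.27 to 11.34 in Trem2-/- and 11.28 to 11.54 in WT. Other signals differed between arrays. Y-linked genes were high in all 6 Trem2-/-5XFAD and 4 of 5 5XFAD arrays, against 1 of 4 Trem2-/- and 1 of 4 WT arrays. Xist, which is expressed in females, was 8.61 to 9.52 in the arrays where Y-linked genes were low and 2.99 to 3.67 where they were high. By both signals most arrays with the transgenes were male and most without them female. Sex and the transgenes thus cannot be fully told apart in 5XFAD vs WT or Trem2-/-5XFAD vs Trem2-/-. Salivary gland transcripts were high in 5XFAD 1 and 5XFAD 2 (marker means 6.34 and 6.10) and in WT 1 and WT 2 (6.60 and 6.91), against 4.99 in Trem2-/- 3, which held a lower level of them, and 2.70 to 3.92 in the other assigned arrays. Of the 5 measured markers of this list, Smr3a (at most 2.89) and Amy1 (at most 3.11) were low in every assigned array. The name thus rests on Klk1b22, Mucl2 and Prol1. Neutrophil markers were highest in Trem2-/-5XFAD 1 (5.91) and Trem2-/- 1 (5.83), against at most 5.31 elsewhere. Of the 10 measured markers of this list, Ltf, Mpo, Elane, Cxcr2 and Mmp8 were at most 4.82 in every assigned array. S100a8 and S100a9 reached 11.11 and 11.22 in Trem2-/-5XFAD, and Retnlg, Ngp and Camp at most 7.46. The mean thus follows S100a8 and S100a9 most. Border macrophage markers, 7 of 7 measured, averaged 5.42 to 6.32 in 5XFAD and 6.43 to 7.42 in WT without overlap, and astrocyte markers, 7 of 7 measured, 5.46 to 5.91 in 5XFAD and 5.11 to 5.30 in WT. The astrocyte markers did not move together: Gfap was 5.96 to 7.08 in 5XFAD and 4.03 to 4.38 in WT, Slc1a3 was lower in 5XFAD (6.90 to 7.31, against 7.77 to 8.14 in WT), and Gja1 overlapped. No marker gene was listed at 0. In such bulk samples fewer cells of a type and less RNA per cell cannot be told apart.

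The first question was how these genes differ between 5XFAD and WT, that is in microglia of a brain with amyloid plaques. Of the 37 members, 4 were higher (Atg7, Sqstm1, Becn1 and Rheb) and 3 lower (Ulk2, Atg12 and Tfeb) at a limma adjusted p under 0.05. That is 18.9% of the members, against 15.0% of all 12728 tested genes (8.23% higher and 6.77% lower), so the share of members called was near the background. The median difference was -0.03 on the log2 scale for the members and -0.02 for all tested genes. The list as a whole did not shift in one direction, and the differences sat in single genes at different steps of the pathway. All 7 called members are plotted by array.

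**Figure D1:**
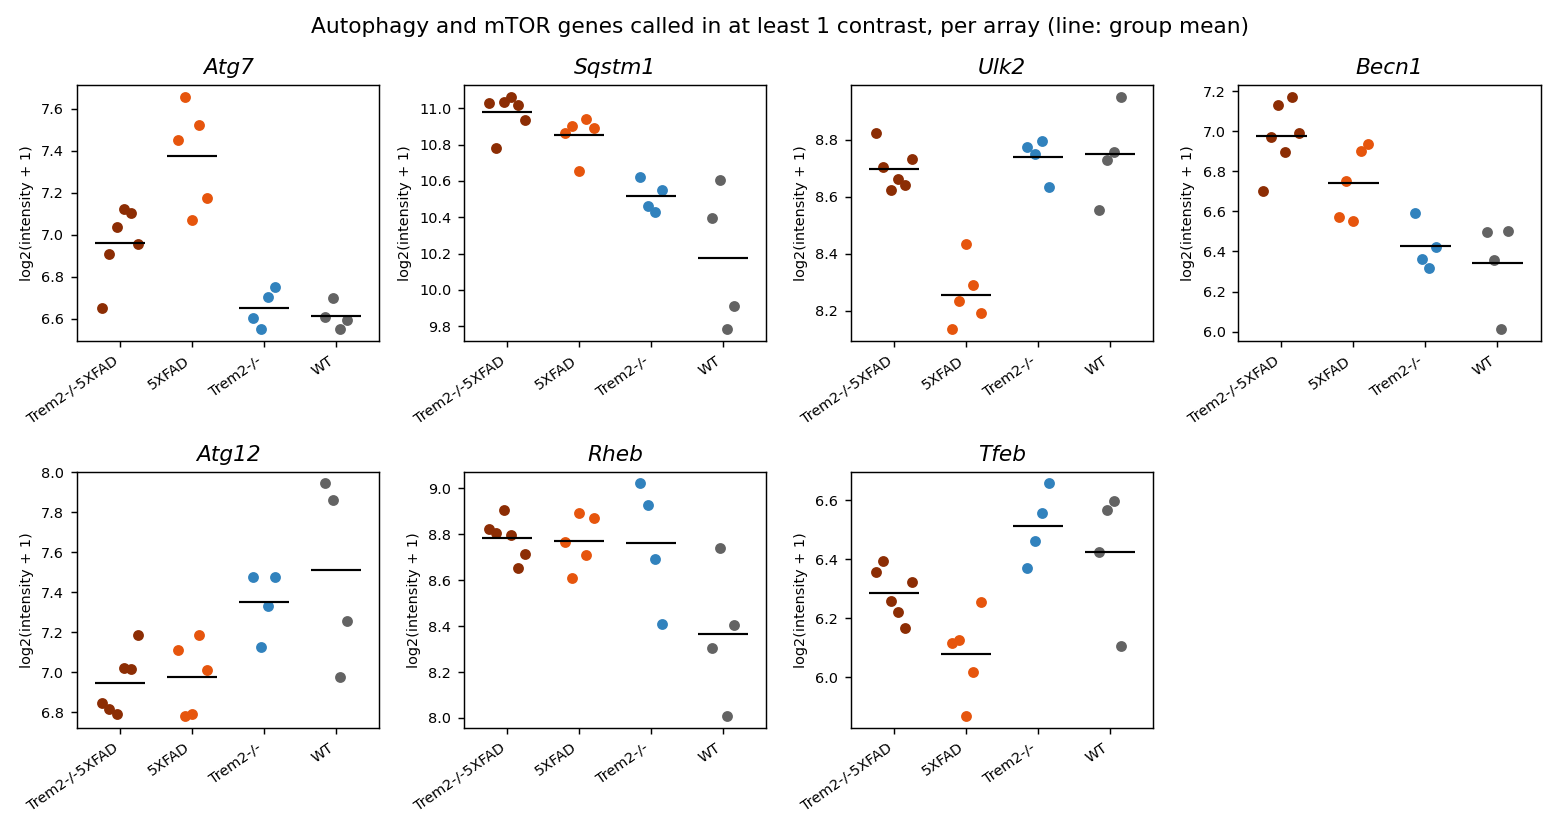
Level of each of the 7 called members, log2(intensity + 1), in every assigned array of Trem2-/-5XFAD, 5XFAD, Trem2-/- and WT mice; each point is an array and the line is the group mean, and each panel has its own axis, which does not start at 0. Atg7 is highest and Ulk2 lowest in the 5XFAD arrays, while Sqstm1 and Becn1 are high in both groups with the transgenes.

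Among the 4 members of the induction complex, Ulk2, a kinase that starts autophagy, was lower in 5XFAD. It measured 8.13, 8.23, 8.43, 8.29 and 8.19 in 5XFAD arrays, against 8.56, 8.73, 8.76 and 8.95 in WT arrays. Every 5XFAD array lay below every WT array, and the difference was -0.49 ± 0.09 (SE; limma adjusted p = 0.00088). Its paralog Ulk1 (-0.25), the scaffold Rb1cc1 (-0.30) and the adaptor Atg13 (-0.27) did not pass the test. The 95% intervals of Rb1cc1 and Atg13 included 0, and that of Ulk1 ran from -0.50 to -0.01.

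Among the 5 members of the lipid kinase complex, Becn1, the subunit through which Bcl2 proteins restrain the complex, was higher in 5XFAD. It measured 6.57, 6.75, 6.55, 6.90 and 6.94 in 5XFAD arrays, against 6.50, 6.36, 6.01 and 6.50 in WT arrays. The groups did not overlap, although the lowest 5XFAD array was only slightly above the highest WT array, and the difference was 0.40 ± 0.13 (SE; limma adjusted p = 0.0334). The call was lost when WT 2, WT 3, 5XFAD 2, 5XFAD 4 or 5XFAD 5 was left out, with differences of 0.29 to 0.46 over all 19 arrays left out in turn. It was also lost in 6 of the 14 other alternatives, among them a second quantile normalization (0.37), the Y-linked covariate (0.35), the covariate of other brain cell markers (0.38) and the fit without the 4 arrays with salivary gland transcripts (0.54). The kinase Pik3c3, its regulatory subunit Pik3r4 and the partner subunits Atg14 and Uvrag had differences between -0.22 and 0.05 and did not pass the test. The proteins that read or feed the lipid signal, Wipi1, Wipi2, the lipid transporter Atg2a and the membrane protein Atg9a, lay between -0.20 and 0.20, with none of the 4 called.

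The conjugation machinery held the largest difference of the list. Atg7, the E1-like enzyme that activates both ubiquitin-like chains, measured 7.45, 7.66, 7.07, 7.52 and 7.18 in 5XFAD arrays, against 6.61, 6.70, 6.55 and 6.59 in WT arrays. Every 5XFAD array was above every WT array, and the spread was wider in 5XFAD (SD 0.25, n = 5) than in WT (SD 0.06, n = 4). The difference was 0.76 ± 0.12 (SE; 1.70-fold; limma adjusted p = 0.000122), and it was called under all 33 alternatives. In the alternatives that left out an array of another genotype, the difference itself could not change, here and for the genes below.

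Atg12, the ubiquitin-like protein that Atg7 activates and that is joined to Atg5, went the other way. It measured 7.11, 6.78, 6.79, 7.19 and 7.01 in 5XFAD arrays, against 7.94, 7.86, 6.97 and 7.26 in WT arrays. The groups overlapped, and the 2 highest WT arrays were those with salivary gland transcripts. The difference was -0.53 ± 0.17 (SE; limma adjusted p = 0.0323), and the call was lost without WT 1, WT 2, 5XFAD 2 or 5XFAD 3 (-0.71 to -0.39 over all arrays left out in turn). It was also lost in 3 of the 14 other alternatives. These were the covariate of other brain cell markers, the fit of 5XFAD and WT alone, and the fit without the 4 arrays with salivary gland transcripts. Within the arrays with salivary gland transcripts the difference was -0.96 (2 against 2 arrays), and without them -0.12 (3 against 2 arrays, not called). The other 8 conjugation genes did not pass the test. Among these the E2-like Atg3 differed by 0.02 and Atg16l2, a paralog of the scaffold Atg16l1, by 0.39 (95% interval 0.03 to 0.74), with the proteases Atg4b, Atg4c and Atg4d at -0.17 to -0.27. Atg16l2 was called with the covariate of other brain cell markers.

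The 5 Atg8 family genes, which encode the membrane tags of the pathway, did not pass the test. Their mRNA levels do not show how much of the proteins is attached to membranes. Map1lc3b, which encodes LC3B, measured 9.88, 9.82, 9.62, 9.69 and 9.70 in 5XFAD arrays, against 9.70, 9.40, 9.25 and 9.32 in WT arrays. Its difference of 0.32 (95% interval 0.08 to 0.57) had a limma adjusted p of 0.0716. It was called with a pseudocount of 16, with a variance trend, with the Y-linked covariate and without WT 1. Its second, dimmer probe set gave 0.75 ± 0.33 (SE). Gabarap, Gabarapl1 and Map1lc3a had differences of 0.10, 0.34 and 0.15. Gabarapl2 gave -0.20 by its brighter probe set and 0.18 by its other one, neither distinguishable from 0.

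Sqstm1, which encodes the ubiquitin-binding cargo receptor p62, measured 10.87, 10.90, 10.65, 10.94 and 10.89 in 5XFAD arrays, against 10.40, 10.60, 9.78 and 9.91 in WT arrays. All 5XFAD arrays were above all WT arrays, and WT split into 2 higher arrays, those with salivary gland transcripts, and 2 lower ones. The difference was 0.68 ± 0.13 (SE; 1.60-fold; limma adjusted p = 0.00118) and was called under all 33 alternatives. It was 0.38 within the arrays with salivary gland transcripts and 0.98 among the arrays without them. Nbr1, another receptor for ubiquitinated cargo, had a difference of -0.26 and did not pass the test (95% interval -0.47 to -0.04; limma adjusted p = 0.101).

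Tfeb measured 6.12, 6.13, 5.87, 6.02 and 6.26 in 5XFAD arrays, against 6.42, 6.57, 6.60 and 6.11 in WT arrays. WT 4 lay among the 5XFAD arrays, so the groups overlapped, and the difference was -0.35 ± 0.11 (SE; limma adjusted p = 0.0377). The call was lost when any of WT 1, WT 2, WT 3, 5XFAD 1, 5XFAD 2, 5XFAD 3 or 5XFAD 4 was left out (-0.45 to -0.29 over all arrays left out in turn). It was also lost in 6 of the 14 other alternatives, among them a variance trend (-0.35), the neutrophil covariate (-0.33), the covariate of other brain cell markers (-0.38) and the fit without the 4 arrays with salivary gland transcripts (-0.30). Tfeb activity is set largely by where the protein sits in the cell, which an mRNA level does not show. Tfeb lies on chromosome 17, as Trem2 does, with 24 annotated genes between them, and its Trem2-/- and WT levels differed by 0.09 (95% interval -0.15 to 0.33).

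Of the 6 mTOR genes, only Rheb, the small GTPase that switches mTORC1 on, was called. It measured 8.77, 8.61, 8.89, 8.71 and 8.87 in 5XFAD arrays, against 8.31, 8.74, 8.01 and 8.41 in WT arrays. WT 2 lay among the 5XFAD arrays, and the difference was 0.40 ± 0.14 (SE; limma adjusted p = 0.0479). This call was close to the limit: it was lost in 15 of the 19 fits that left out an array (0.29 to 0.53 over all arrays left out in turn). It was kept only without WT 2, Trem2-/- 1, Trem2-/- 4 or 5XFAD 2, and it was lost in 9 of the 14 other alternatives. Rptor, the subunit that defines mTORC1, averaged 7.78 ± 0.19 in 5XFAD (SD, n = 5) and 8.13 ± 0.17 in WT (SD, n = 4), a difference of -0.35 short of the threshold (limma adjusted p = 0.0785). Mtor itself differed by 0.10 (95% interval -0.14 to 0.35), Rictor, which defines mTORC2, by -0.12, and the inhibitors Tsc1 and Tsc2 by 0.05 and 0.04.

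Single settings changed the number of members called in 5XFAD vs WT. It was 4 (10.8%) with a covariate of neuron, astrocyte, oligodendrocyte and vascular markers, where 8.12% of all tested genes were called, and 4 without the 4 arrays with salivary gland transcripts, where 11.3% were. Atg7, Sqstm1 and Ulk2 were among the 4 both times. The remaining member was Atg16l2 with the covariate, a gene not called without it, and Rheb without the 4 arrays. The calls of Becn1, Atg12 and Tfeb were lost both times, and that of Rheb with the covariate. The mean of these brain cell markers was 4.83 to 4.98 in 5XFAD and 4.69 to 4.80 in WT. This covariate also carries single genes that differ between 5XFAD and WT, such as Gfap and the vascular marker Flt1. What a call lost with it reflects was not tested. The part of border macrophage markers in these differences was not tested.

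**Figure D2:**
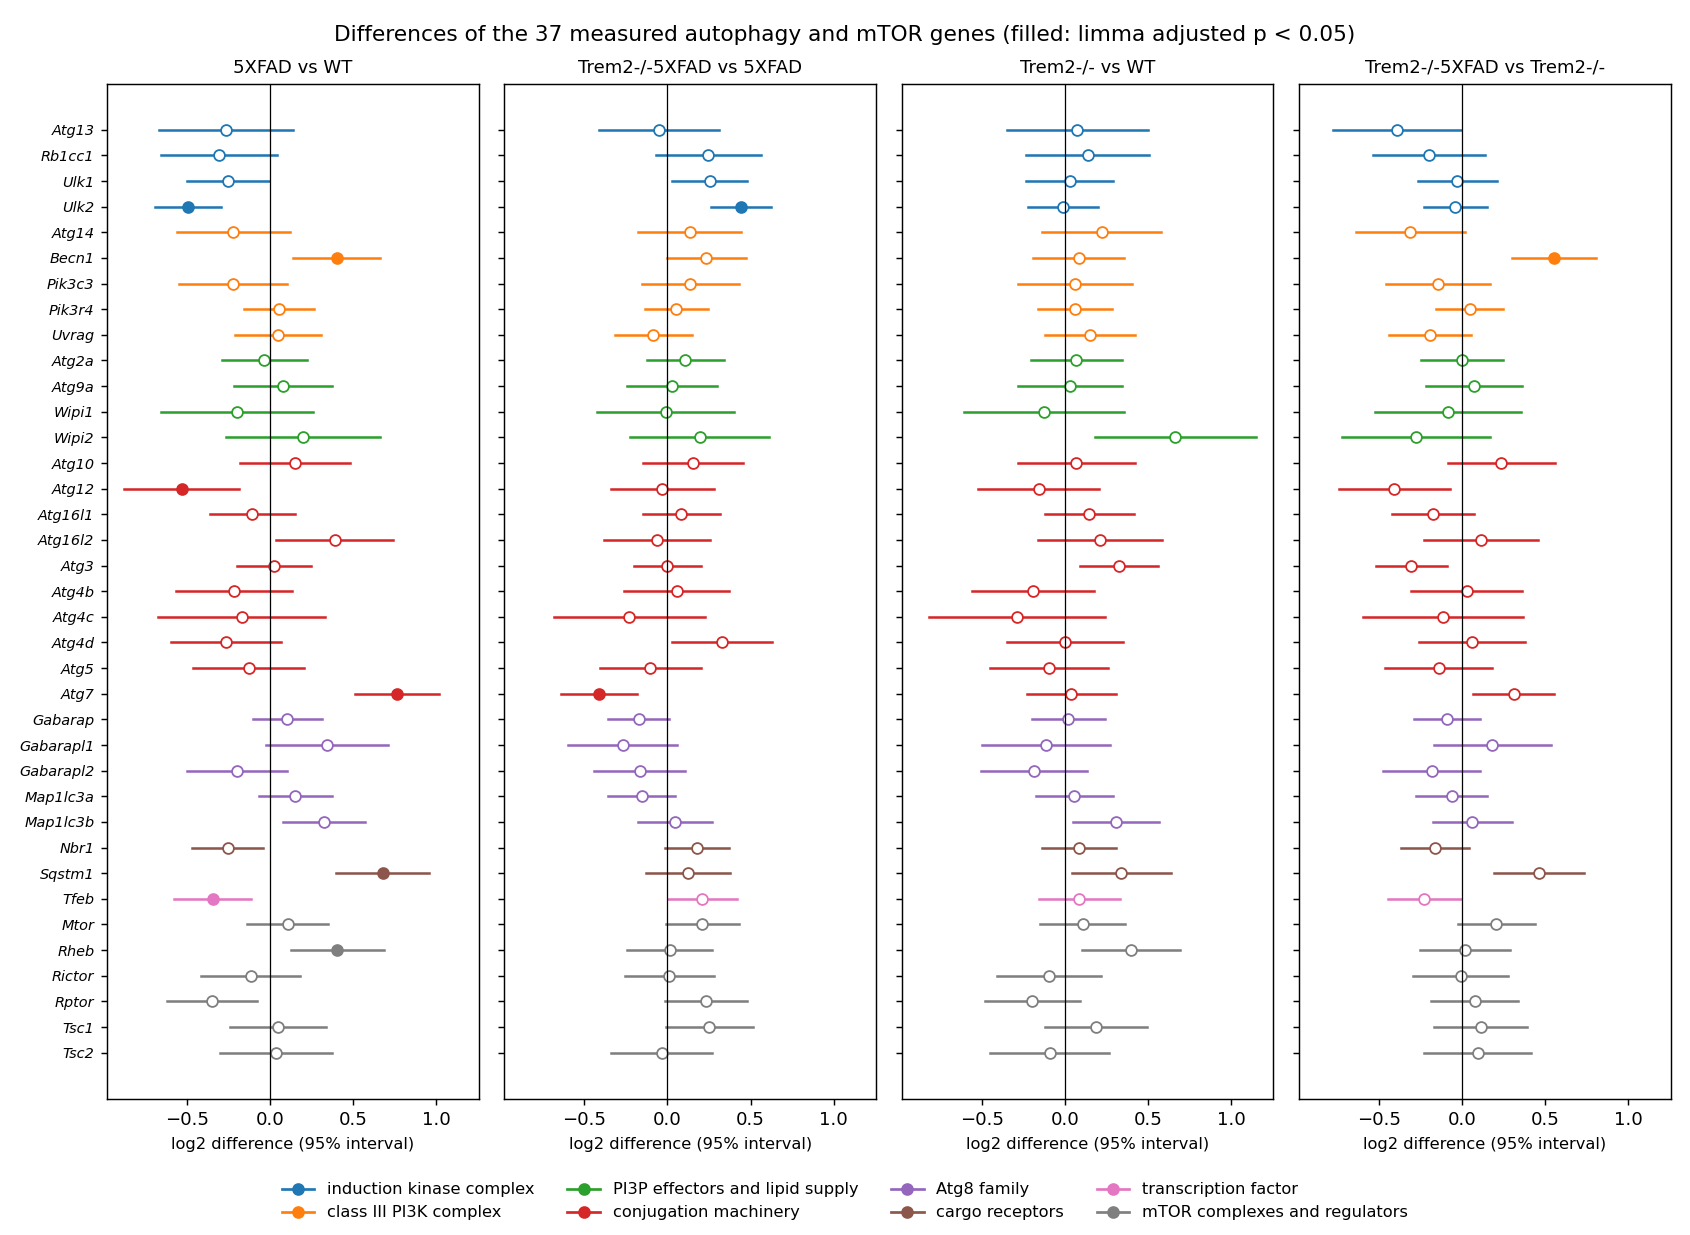
Log2 difference with its 95% interval for each of the 37 measured members in 4 comparisons, grouped by role and coloured by it; filled points passed limma at an adjusted p under 0.05. In 5XFAD vs WT 7 points are filled, in Trem2-/-5XFAD vs 5XFAD 2, in Trem2-/- vs WT 0, and in Trem2-/-5XFAD vs Trem2-/- 1.

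Trem2-/-5XFAD was then set against 5XFAD, to see how these genes depend on Trem2 in the brain with plaques. It uses the same 5XFAD arrays as the comparison above, so the values of both are given side by side and not as independent evidence. Ulk2 was higher and Atg7 lower in Trem2-/-5XFAD. These 2 are 5.41% of the members, against 7.68% of all tested genes (3.21% higher and 4.46% lower), which is under the background. The median difference was 0.05 for the members and 0.04 for all tested genes.

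Ulk2 ranged from 8.62 over a median of 8.68 to 8.82 in Trem2-/-5XFAD, against 8.13, 8.23, 8.43, 8.29 and 8.19 in 5XFAD arrays. No Trem2-/-5XFAD array was as low as any 5XFAD array, and the difference was 0.44 ± 0.09 (SE; 1.36-fold; limma adjusted p = 0.002). The Trem2-/-5XFAD values fell in the range of the WT arrays, 8.56 to 8.95. The call held in 32 of 33 alternatives and was lost with the covariate of other brain cell markers, where the difference was 0.45. Astrocyte markers averaged 5.17 to 5.42 in Trem2-/-5XFAD and 5.46 to 5.91 in 5XFAD, while the mean of all markers in this covariate overlapped, at 4.69 to 4.88 in Trem2-/-5XFAD and 4.83 to 4.98 in 5XFAD. Border macrophage markers, 7 of 7 measured, did not overlap, averaging 6.64 to 7.28 in Trem2-/-5XFAD and 5.42 to 6.32 in 5XFAD, and their part in this difference was not tested.

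Atg7 measured 6.65, 6.91, 7.04, 7.12, 7.10 and 6.95 in Trem2-/-5XFAD arrays, against 7.45, 7.66, 7.07, 7.52 and 7.18 in 5XFAD arrays. The groups overlapped at the lowest 5XFAD array, and the difference was -0.41 ± 0.11 (SE; limma adjusted p = 0.0215). The call was lost without 5XFAD 1, 5XFAD 2, 5XFAD 4 or Trem2-/-5XFAD 1 (-0.49 to -0.34 over all arrays left out in turn), and it was -0.29 without the 4 arrays with salivary gland transcripts and -0.32 with neutrophil markers as a covariate, where it was also lost, as it was in 6 of the 14 other alternatives in all. Neutrophil markers averaged 4.42 to 5.91 in Trem2-/-5XFAD and 4.02 to 4.92 in 5XFAD.

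The other members called in 5XFAD vs WT did not pass the test between Trem2-/-5XFAD and 5XFAD. Sqstm1 averaged 10.98 ± 0.10 in Trem2-/-5XFAD (SD, n = 6) and 10.85 ± 0.11 in 5XFAD (SD, n = 5), with a 95% interval of the difference from -0.13 to 0.38. Becn1 averaged 6.98 ± 0.17 in Trem2-/-5XFAD and 6.74 ± 0.18 in 5XFAD, a difference of 0.23. Tfeb differed by 0.21, Rheb by 0.01 and Atg12 by -0.03. Ulk1, the paralog of Ulk2, averaged 6.78 ± 0.10 in Trem2-/-5XFAD and 6.53 ± 0.25 in 5XFAD, a difference of 0.25 that did not pass (limma adjusted p = 0.181). Among the mTOR genes Mtor, Rptor and Tsc1 had differences of 0.21, 0.23 and 0.25, each with an interval that included 0. The 5 Atg8 family genes lay between -0.27 and 0.04, and the 4 lipid effectors between -0.01 and 0.19.

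The comparison of Trem2-/-5XFAD with Trem2-/- asked how the genes differ with the transgenes where Trem2 is absent. Becn1 was the only member called, higher in Trem2-/-5XFAD, 2.70% of the members against 2.18% of all tested genes (1.63% higher and 0.558% lower). Becn1 ranged from 6.70 over a median of 6.98 to 7.17 in Trem2-/-5XFAD, against 6.59, 6.36, 6.32 and 6.42 in Trem2-/- arrays. The groups did not overlap, and the difference was 0.55 ± 0.12 (SE; 1.47-fold; limma adjusted p = 0.0166). This call was lost without Trem2-/- 2 or Trem2-/- 3 (0.51 to 0.61 over all arrays left out in turn) and in 3 of the 14 other alternatives, among them the covariate of other brain cell markers (0.53) and Y-linked signal as a covariate (0.47), a signal present in 6 of 6 Trem2-/-5XFAD and 1 of 4 Trem2-/- arrays.

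Sqstm1 ranged from 10.78 over a median of 11.02 to 11.06 in Trem2-/-5XFAD, against 10.62, 10.46, 10.43 and 10.55 in Trem2-/- arrays. These groups did not overlap either, but the difference of 0.46 ± 0.13 (SE) missed the threshold (limma adjusted p = 0.0679). It did pass with a variance trend, with a pseudocount of 16 and when only these 2 groups were fitted. It also passed without the 4 arrays with salivary gland transcripts, without WT 2 and without WT 3, all arrays outside these groups. Atg7 averaged 6.96 ± 0.17 in Trem2-/-5XFAD (SD, n = 6) and 6.65 ± 0.09 in Trem2-/- (SD, n = 4), a difference of 0.31 with a limma adjusted p of 0.195. Ulk2 averaged 8.70 ± 0.07 in Trem2-/-5XFAD and 8.74 ± 0.07 in Trem2-/-, and the 95% interval of its difference ran from -0.23 to 0.15.

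Trem2-/- against WT addressed the dependence on Trem2 without plaques. None of the 37 members passed limma's test at an adjusted p under 0.05, against 0.613% of all tested genes. At an unadjusted p under 0.05 there were 5 members, Wipi2, Rheb, Sqstm1, Atg3 and Map1lc3b, which is 13.5% of the members against 12.4% of all tested genes. Wipi2, which recruits the conjugation machinery to the lipid mark, measured 7.07, 6.93, 6.95 and 6.64 in Trem2-/- arrays, against 6.51, 6.01, 5.79 and 6.63 in WT arrays. Every Trem2-/- array lay above every WT array, the difference was 0.67 ± 0.23 (SE), and the limma adjusted p was 0.229. Rheb averaged 8.76 ± 0.27 in Trem2-/- and 8.37 ± 0.30 in WT (SD, n = 4 each), with a limma adjusted p of 0.237. Without the 4 arrays with salivary gland transcripts, which leaves WT 3 and WT 4 but keeps Trem2-/- 3 with its lower level of these transcripts, Sqstm1 was called in this comparison.

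The interaction, the change with 5XFAD in mice without Trem2 minus that in mice with Trem2, tested whether the response depends on Trem2. No member passed limma's test, against 2.60% of all tested genes, and 4 members had an unadjusted p under 0.05, which is 10.8% of the members and 14.2% of all tested genes. Ulk2 had the smallest p, with an interaction of 0.45 ± 0.13 (SE; limma adjusted p = 0.077). It passed with a pseudocount of 16, after a second quantile normalization and without WT 1. The interaction of Atg7 was -0.45 ± 0.17 (SE; limma adjusted p = 0.190), that of Rptor 0.43 and that of Atg3 -0.32. The dependence of the 5XFAD response on Trem2 was thus not shown for any member at this number of arrays.

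Further genes of the same pathways, 80 in number, were examined from a second fixed list, of which 74 were tested. In 5XFAD vs WT 12 of the 74 were called, 6 higher and 6 lower (16.2%, against 15.0% of all tested genes). Of the 30 other autophagy genes 1 rose and 3 fell, and of the 44 other mTOR pathway genes 5 rose and 3 fell. Those with the smallest p were Rragd, Sesn1, Prr5l, Prkab1 and Fnip2, all on the mTOR side and with differences as large as or larger than that of any member.

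Rragd, a Rag GTPase that brings mTORC1 to the lysosome and is a known target of the Tfeb family, ranged from 5.49 to 6.72 in 5XFAD arrays (mean 6.26 ± 0.50, SD, n = 5), against 4.21, 4.64, 4.04 and 4.71 in WT arrays. Every 5XFAD array was above every WT array, and it rose by 1.85 ± 0.22 (SE; 3.61-fold; limma adjusted p = 3.5e-06). The WT values lie near the 40th percentile of the arrays (4.16 to 4.34), where the scale understates folds. In Trem2-/-5XFAD it ranged from 4.68 over a median of 5.26 to 5.66, a fall of 1.03 ± 0.20 against 5XFAD (limma adjusted p = 0.00192), with the highest Trem2-/-5XFAD array above the lowest 5XFAD array. Its interaction was -1.07 ± 0.31 and did not pass (limma adjusted p = 0.0697).

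Sesn1, a stress-induced inhibitor of mTORC1, averaged 7.71 ± 0.21 in 5XFAD (SD, n = 5) and 8.77 ± 0.32 in WT (SD, n = 4), and fell by 1.06 ± 0.15 (limma adjusted p = 2.8e-05). Prkab1, a regulatory subunit of the energy sensor AMPK, averaged 8.53 ± 0.21 in 5XFAD and 9.44 ± 0.20 in WT, and fell by 0.91 ± 0.15 (limma adjusted p = 0.000258). Prr5l, a partner of mTORC2, averaged 5.50 ± 0.20 in 5XFAD and 4.67 ± 0.25 in WT, and rose by 0.83 ± 0.14 (limma adjusted p = 0.000216). In none of these 3 genes did the 5XFAD and WT arrays overlap. Fnip2, a partner of the Rag regulator folliculin, rose by 0.82 ± 0.21 with overlapping groups. On the autophagy side Bnip3, a mitochondrial receptor for autophagy, rose by 0.61 ± 0.16 and Tfe3, a relative of Tfeb, fell by 0.45 ± 0.12.

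Between Trem2-/-5XFAD and 5XFAD 6 of the 74 were called, 2 higher and 4 lower (8.11%, against 7.68% of all tested genes). Rragd, Lamtor2, Bnip3 and Prr5l were lower and Sesn1 and Prkab1 higher, and all 6 were also called in 5XFAD vs WT, which shares the 5XFAD arrays. The same overlap over all tested genes was not counted, so it is not read as a trait of these genes. Lamtor2, a subunit of the lysosomal scaffold that anchors the Rag GTPases, averaged 8.09 ± 0.17 in Trem2-/-5XFAD (SD, n = 6) and 8.62 ± 0.14 in 5XFAD (SD, n = 5), and fell by 0.52 ± 0.11 (limma adjusted p = 0.00495). Bnip3 fell by 0.61 ± 0.15, and Sesn1 averaged 8.23 ± 0.18 in Trem2-/-5XFAD and 7.71 ± 0.21 in 5XFAD, a rise of 0.52 ± 0.13. With the covariate of other brain cell markers none of these 6 calls remained, and over all tested genes 300 were called in place of 977. The differences kept their sign, at -0.87 for Rragd, -0.65 for Bnip3, -0.38 for Lamtor2, -0.28 for Prr5l, 0.60 for Sesn1 and 0.60 for Prkab1. In 5XFAD vs WT 6 of the 74 were called with this covariate in place of 12, and 1034 of all tested genes in place of 1909. Among these 6, Rragd, Sesn1, Prkab1, Prr5l and Eif4ebp2 had been called without it, and the remaining gene had not. The calls of Fnip2 (0.85, limma adjusted p = 0.07045), Bnip3 (0.64, limma adjusted p = 0.0815) and Tfe3 (-0.39, limma adjusted p = 0.161) were lost. Prr5l was also the only one of the 74 called between Trem2-/-5XFAD and Trem2-/- (0.78 ± 0.13, limma adjusted p = 0.0019), 1.35% against 2.18% of all tested genes. None was called in Trem2-/- vs WT, where 8 had an unadjusted p under 0.05 (10.8%, against 12.4% of all tested genes), or in the interaction, where 7 did (9.46%, against 14.2%).

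**Figure D3:**
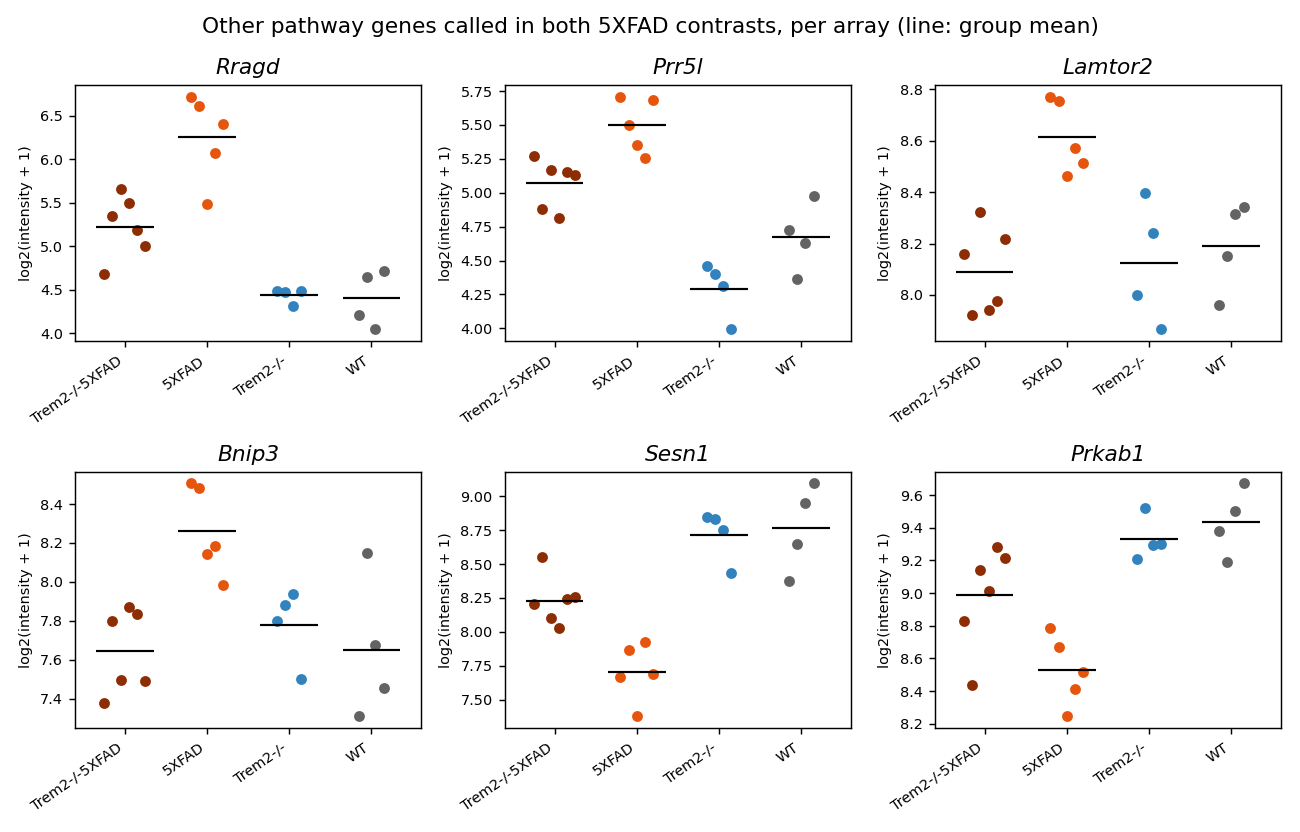
Level, log2(intensity + 1), of the 6 further pathway genes called in both 5XFAD vs WT and Trem2-/-5XFAD vs 5XFAD, in every assigned array; points are arrays, lines are group means, and the axes do not start at 0. Rragd, Prr5l, Lamtor2 and Bnip3 have their highest group mean, and Sesn1 and Prkab1 their lowest, in 5XFAD. Both comparisons share the 5XFAD arrays, so this pattern follows in part from how the genes were chosen.

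**Figure D4:**
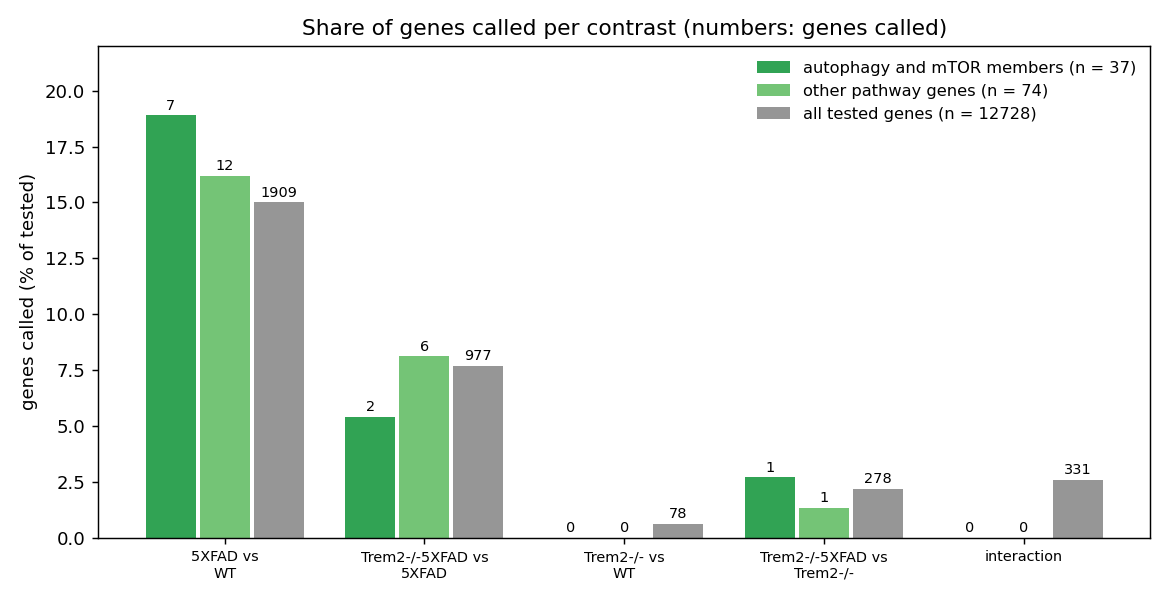
Percent of tested genes called by limma at an adjusted p under 0.05 in each of the 5 comparisons, for the 37 members, the 74 other pathway genes and all 12728 tested genes; the number on a bar is the count of genes called. In no comparison is the members' share far from that of all tested genes: 18.9% against 15.0% in 5XFAD vs WT and 5.41% against 7.68% in Trem2-/-5XFAD vs 5XFAD.

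The members varied within groups about as much as the tested genes in general. Their residual standard deviation had a median of 0.21 on the log2 scale, against 0.22 for all tested genes, from 0.11 for Ulk2 to 0.40 for Atg4c. The precision therefore differed between members: the standard error of the difference between 5XFAD and WT was 0.09 for Ulk2 and 0.24 for Atg4c.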

How the data were processed

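Microglia from 8.5-month-old mice of 4 genotypes were profiled on 1-colour arrays from 2 ng of RNA. The intensity values, on a linear scale and as the authors deposited them, cover 24679 probe sets and 20 arrays. Array medians were 25.7 to 28.6, and no label or file header names the tools or the normalization. Values were transformed as log2(intensity + 1), which understates the folds of weak genes. The platform annotation named 1 gene for 21354 probe sets and several for 1275. A gene was tested if it exceeded the array's 40th percentile in at least 4 of 19 assigned arrays (12728 genes). The tests were those of limma 3.58.1 (R 4.3.3), with all 4 groups in 1 model, with Benjamini-Hochberg adjustment over all tested genes; all adjusted p-values are limma's. A gene is called at an adjusted p under 0.05. The number of arrays limits precision. The method was tested on simulated data. Members and lists were chosen with earlier results of these data known. Per-array values are given for each called member, and the pathway genes named are those with the smallest adjusted p, while Bnip3 and Tfe3 in 5XFAD vs WT and Prkab1 in Trem2-/-5XFAD vs 5XFAD were added after their values were seen. Marker lists for microglia, neutrophils, neurons, astrocytes, oligodendrocytes, vascular cells, border macrophages, salivary gland and sex were summarised as means. Mean levels of neuron markers lay between 3.90 and 4.20, of oligodendrocyte markers between 5.12 and 5.57 and of vascular markers between 4.15 and 4.77 in all assigned arrays. The vascular markers did not move together. Flt1 was 6.73 to 7.50 in 5XFAD, against 3.93 to 4.38 in WT and 3.85 to 4.38 in Trem2-/-5XFAD. Pecam1 was lower in 5XFAD (4.63 to 5.16, against 6.34 to 6.74 in WT), and the other vascular markers overlapped between 5XFAD and WT. Alternatives covered the pseudocount, filter, normalization, probe sets, replicate block, groups in the fit, variance model, covariates and left-out arrays.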

Additional observations from a re-analysis of the deposited data

Results flagged for a closer look

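In 148 groups of arrays (37 members in 4 genotypes) the highest or lowest array was compared with the others, and 9 stood apart by Dixon's criterion; chance gives about 1 in 20. Atg4b was high in 5XFAD 2 at 6.18, against 5.41 to 5.59 in the other 5XFAD arrays. Atg10 was low in Trem2-/- 2 at 6.19, against 6.39 to 6.42. Atg14 was high in WT 4 at 7.05, against 6.45 to 6.54. Pik3r4 was high in Trem2-/-5XFAD 5 at 6.85, against 6.58 to 6.66. Gabarap was low in Trem2-/-5XFAD 2 at 10.94, against 11.08 to 11.14, and in Trem2-/- 4 at 11.00, against 11.22 to 11.24. Sqstm1 was low in 5XFAD 3 at 10.65, against 10.87 to 10.94. Mtor was low in WT 2 at 6.14, against 6.66 to 6.72. Rptor was low in Trem2-/-5XFAD 2 at 7.54, against 8.03 to 8.23.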

How the results depend on the processing

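Over the 33 alternatives no called member changed direction, and Atg7, Sqstm1 and Ulk2 in 5XFAD vs WT were called in each. Leaving out an array of a group outside a comparison could change only the spread and the p-values, not the difference or its direction. The members called numbered 7 in 5XFAD vs WT, 2 in Trem2-/-5XFAD vs 5XFAD, 0 in Trem2-/- vs WT, 1 in Trem2-/-5XFAD vs Trem2-/- and 0 in the interaction; the counts below follow these names, and the cause of a change was not tested. With a pseudocount of 16 they were 2 in Trem2-/-5XFAD vs Trem2-/- and 1 in the interaction, and after a second quantile normalization 1 in the interaction. The title numbers did not pair the samples across all groups, since 5 of 25 same-numbered pairs had deviations correlated above 0.1 (-0.10 to 0.17). Of the differently numbered pairs 13 of 109 did (-0.17 to 0.18). Between 5XFAD and WT the 4 pairs were at 0.09 to 0.17, 3 of them above 0.1, and numbers 1 and 2 there are also the arrays with salivary gland transcripts. Differently numbered pairs of these arrays were also positive, at 0.11 for WT 1 with 5XFAD 2 and 0.13 for WT 2 with 5XFAD 1. The block ended the calls of Becn1, Tfeb and Rheb in 5XFAD vs WT, Atg7 in Trem2-/-5XFAD vs 5XFAD and Becn1 in Trem2-/-5XFAD vs Trem2-/-. With the replicate block they were 4 in 5XFAD vs WT, 1 in Trem2-/-5XFAD vs 5XFAD and 0 in Trem2-/-5XFAD vs Trem2-/-, and all tested genes called were 38 in Trem2-/- vs WT and 183 in Trem2-/-5XFAD vs Trem2-/- (78 and 278 without it). In models of the groups compared alone members were 3, 1 and 2 in 5XFAD vs WT, Trem2-/-5XFAD vs 5XFAD and Trem2-/-5XFAD vs Trem2-/-, and all tested genes 11 in Trem2-/- vs WT; with a variance trend members were 2 in Trem2-/-5XFAD vs Trem2-/-. With Y-linked signal as covariate Trem2-/-5XFAD vs Trem2-/- had 0 members and 144 genes. With neutrophil markers as covariate Trem2-/-5XFAD vs 5XFAD had 1 member and Trem2-/- vs WT 22 genes. With other brain cell markers as covariate 5XFAD vs WT had 4 members and 1034 genes (1909 without it), Trem2-/-5XFAD vs 5XFAD 0 and 300 (977 without it), Trem2-/- vs WT 11 genes, and Trem2-/-5XFAD vs Trem2-/- 0 and 93. Of the 4 members in 5XFAD vs WT, Atg16l2 was not called without this covariate. Without the 4 arrays with salivary gland transcripts 5XFAD vs WT had 4 members, Trem2-/-5XFAD vs 5XFAD 1 and 579 genes, Trem2-/- vs WT 1 and 271 genes, and Trem2-/-5XFAD vs Trem2-/- 2 members. Without Trem2-/- 1 and Trem2-/-5XFAD 1, chosen after seeing the data, Trem2-/-5XFAD vs 5XFAD had 1 member, and genes called were 27 in Trem2-/- vs WT, 146 in Trem2-/-5XFAD vs Trem2-/- and 208 in the interaction (331 with them).

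Leaving out each array in turn, members called ranged from 4 to 7 in 5XFAD vs WT (4 without WT 2, WT 3, 5XFAD 2, 5XFAD 3 or 5XFAD 4), 1 to 2 in Trem2-/-5XFAD vs 5XFAD (1 without 5XFAD 1, 5XFAD 2, 5XFAD 4 or Trem2-/-5XFAD 1), 0 to 0 in Trem2-/- vs WT, 0 to 2 in Trem2-/-5XFAD vs Trem2-/- (2 without WT 2 or WT 3, 0 without Trem2-/- 2 or Trem2-/- 3) and 0 to 1 in the interaction (1 without WT 1). All tested genes called ranged from 1639 to 1969, 675 to 1025, 30 to 159, 158 to 308 and 224 to 362 in the same order. In Trem2-/- vs WT there were 159 without WT 2, 30 without Trem2-/- 1 and 42 to 46 without WT 3, Trem2-/- 2, Trem2-/- 3 or Trem2-/- 4, and in Trem2-/-5XFAD vs Trem2-/- 164 without Trem2-/- 1, 158 without Trem2-/- 3 and 185 without Trem2-/-5XFAD 4. With arrays centred on their medians genes called higher and lower were 286 and 625 in Trem2-/-5XFAD vs 5XFAD (409 and 568 before), 141 and 92 in Trem2-/-5XFAD vs Trem2-/- (207 and 71 before) and 78 and 224 in the interaction (130 and 201 before).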

Other observations

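The array with conflicting labels had a Trem2 level of 11.08, just below the WT arrays (11.14 to 11.39) and far above the Trem2-/- arrays (6.84 to 7.02). This is near the level of arrays with Trem2 present and goes against the Trem2-/- genotype label. Its levels of the called members were 6.67 for Atg7, 10.55 for Sqstm1, 8.60 for Ulk2, 6.46 for Becn1, 7.09 for Atg12, 8.42 for Rheb and 6.38 for Tfeb.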
